A study of Mus musculus with 28 samples.

Results

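The comparison is between untreated mice heterozygous for the L250T form of the alpha7 nicotinic acetylcholine receptor subunit (alpha7 +/T, 5 mice) and untreated wild-type mice (6 mice). Members were chosen by the source label of each array, and these 11 arrays are part of 28 in the series. Each array measured the whole brain RNA of 1 mouse on the Affymetrix U74Av2 GeneChip. All 11 mice were labelled C57BL/6J and both sexes were in each group. The 5 alpha7 +/T mice all carried LT in their titles and were 6 weeks old, except mouse 5 at 8 weeks. Wild-type mice 1 to 3 also carried LT and were 6 weeks old, whereas wild-type mice 4 to 6 carried B4 and were 9, 8 and 7 weeks old. Mouse numbers here are only names. The series also holds untreated beta4 null mice and mice of all 3 genotypes taken after a nicotine-induced seizure. Their arrays entered the same fit, where they add to the estimate of spread and to the signal filter, and their own contrasts are used below only for checks. The seized alpha7 +/T mice all carried LT and were 8 weeks old. Seized wild-type mice 1 to 3 carried LT, B4 and B4 and were 7, 8 and 7 weeks old. The untreated beta4 null mice all carried B4 and were 6 to 9 weeks old. Whole brain mixes every region and cell type, so fewer cells of a type and less RNA per cell cannot be told apart.

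The alpha7 subunit, encoded by Chrna7, forms a homopentameric ligand-gated channel that opens to acetylcholine or nicotine, lets calcium in and desensitizes quickly. It is abundant in hippocampus and cortex, on interneurons and on presynaptic terminals. The L250T change replaces a leucine in the channel-lining segment with threonine, which slows desensitization and raises sensitivity to agonist. Such mice are known for a heightened response to nicotine, seizures included. The untreated comparison asks how brain transcripts differ between the genotypes without nicotine. The groups also differ in title prefix, age and array class, so it does not isolate the mutation.

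The arrays of the groups differed before any gene was considered. Gapdh and beta-actin are each represented by control probe sets at the 3' and 5' ends of the transcript. The log2 ratio of 3' over 5' Gapdh signal lay between 1.84 and 2.57 in all 6 wild-type arrays. It lay between 2.09 and 2.23 in alpha7 +/T mice 1, 2 and 5, and was -0.23 and 0.1 in mice 3 and 4. The mean difference in the Gapdh ratio was -0.781 (two-sided exact permutation test, p = 0.27). Arrays under 0.5 are called low-ratio arrays here. The 2 low-ratio arrays were thus both alpha7 +/T. Beta-actin gave the same split, with log2 ratios of 0.53 and 0.7 in mice 3 and 4 and at least 1.84 in the other 9. The authors' scaling sets an equal trimmed mean on every array, yet the median signal was 51.5 to 58.1 in alpha7 +/T and 43.6 to 49.8 in wild-type mice. Those median signals did not overlap (two-sided exact permutation test, p = 0.0043, the smallest this design allows).

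**Figure D1:**
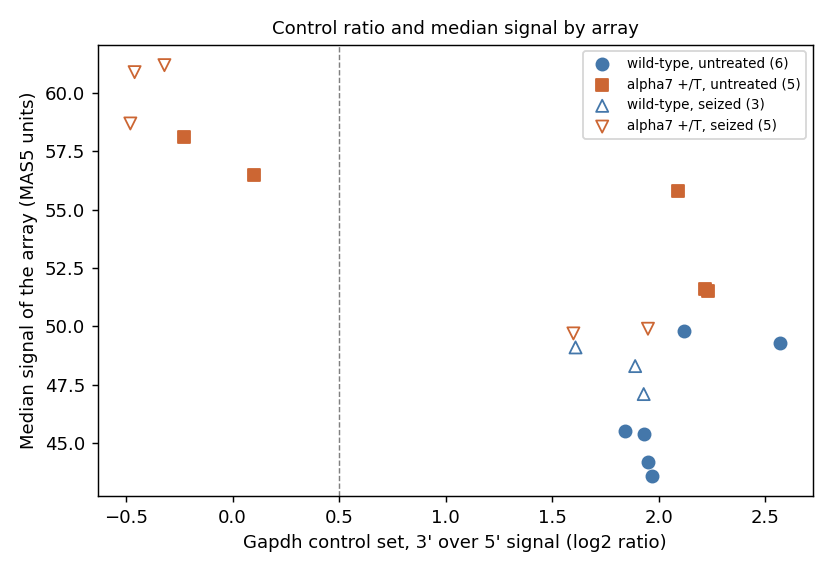
Each point is an array, with its Gapdh 3' over 5' control ratio (log2) on the x axis and its median signal in MAS5 units on the y axis. Filled squares (untreated alpha7 +/T) all lie above filled circles (untreated wild-type) in median signal, and 2 squares lie left of the dashed line at 0.5.

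Across 7350 probe sets with signal above the array median in at least 3 arrays, 568 were higher in alpha7 +/T (7.73%) and 609 lower (8.29%), 1177 in all (16%), at an adjusted p under 0.05. These calls are from limma with Benjamini-Hochberg adjustment. The median change among the called was a log2 difference of 0.75 for those higher, or 1.68-fold, and -0.66 for those lower, or 1.59-fold. Groups without any overlap numbered 178 probe sets with alpha7 +/T higher (2.42%) and 171 with it lower (2.33%). Centring each array on its median turned the split to 382 higher and 742 lower, and quantile normalization to 373 and 646. The median log2 difference over all probe sets was 0.06, and was -0.04 and -0.03 under those scalings. With 1 probe set per gene, the brightest, 436 of 5599 genes were higher (7.79%) and 497 lower (8.88%). These shares are the background for every gene list below.

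The number of calls rested on a few arrays and on the arrays fitted together. With the 2 compared groups fitted alone, 538 probe sets were called. Leaving out alpha7 +/T mouse 3 left 60 calls and leaving out mouse 4 left 144, these being the mice with low-ratio arrays. Leaving out mouse 5, the oldest alpha7 +/T mouse, raised the number to 2041. Leaving out wild-type mouse 3, 5 or 6 gave 512, 624 or 660. With high-ratio arrays alone, 3 alpha7 +/T against 6 wild-type, only 3 probe sets were called (0.0408%), all lower. They were those for B3galt2 and Xpot and a probe set with no gene name here, and they were looked up after the count was seen. With the array class as a covariate, 669 were called (9.1%).

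Restricting the wild-type arrays to the 3 LT mice gave 104 calls (1.41%). With the title prefix as a covariate, 102 were called. Restricting both groups to 6-week LT mice, 4 against 3, gave 678 (9.22%). The high-ratio arrays of those mice, 2 against 3, gave 202 (2.75%), a setting chosen after the data were seen. All 1177 kept their sign in the high-ratio arrays and against LT wild-type mice, which are subsets of the arrays that made the calls, and 810 (404 higher and 406 lower) had an unadjusted p under 0.05 in both of those checks. In the high-ratio arrays the differences were a median 0.7 times as large.

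The differences also followed signal level. Among probe sets sorted into eighths by mean signal, the dimmest had a median log2 difference of 0.36, with 43 called higher and 11 lower. The brightest had a median of -0.17, with 58 higher and 143 lower. Quantile normalization brought these medians to 0.09 and -0.09. The part of signal level and array median in the gene differences below was not tested beyond these settings.

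**Figure D2:**
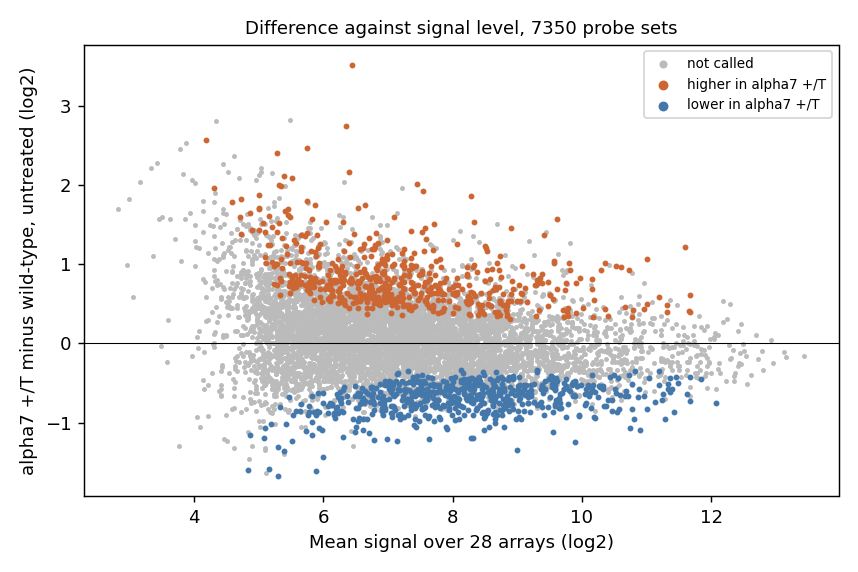
Each point is 1 of 7350 probe sets, with mean log2 signal over 28 arrays on the x axis and the log2 difference between untreated alpha7 +/T and wild-type mice on the y axis. The 609 called lower (blue) are more frequent on the right, while the 568 called higher (orange) are most frequent at middle signal levels.

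Among the 12 genes with the smallest p that were higher, Fezf2 and Atf4 encode transcription factors. Fezf2, the zinc-finger factor that specifies subcortical projection neurons, gave signals of 153, 249, 260, 192 and 244 in alpha7 +/T mice 1 to 5, against 113 to 142 (median 115) in wild-type. Every alpha7 +/T mouse was above every wild-type mouse, a 1.8-fold difference (log2 0.85 ± 0.15 SE, adjusted p = 0.0025). Atf4, a factor that drives amino acid and stress response genes, gave 742, 864, 1160, 946 and 629 against 427 to 571 (median 505). Its groups were also separate, at 1.73-fold (log2 0.79 ± 0.14 SE, adjusted p = 0.0025), with the highest values in mice 3 and 4. In the high-ratio arrays the log2 difference was 0.82 for Fezf2 and 0.59 for Atf4. Over the 29 settings tried, 18 alternatives and 11 with a mouse left out, both genes were called in 27.

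Crhr1, P2rx7 and Mc5r, of the same 12, encode receptors. Crhr1, the receptor for corticotropin-releasing hormone, gave 168, 154, 159, 198 and 131 against 78.8 to 113 (median 102), with no overlap and a 1.63-fold difference (adjusted p = 0.0075). P2rx7, an ATP-gated cation channel, gave 113, 131, 130, 128 and 113 against 49.3 to 99.7 (median 73.6), again without overlap (log2 0.79, adjusted p = 0.0085). Mc5r, a melanocortin receptor, gave 83.8, 100, 73.4, 80.6 and 67.6 against 39.1 to 54.3. All 5 of its alpha7 +/T values stood above wild-type, at log2 0.8 (adjusted p = 0.0025). Mouse 4 was highest for Crhr1, while for P2rx7 and Mc5r both low-ratio arrays lay within the range of the other alpha7 +/T arrays. The log2 differences of Crhr1, P2rx7 and Mc5r in high-ratio arrays were 0.61, 0.74 and 0.84.

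Other genes near the top had varied roles. Pkig, an inhibitor of protein kinase A, was 1.72-fold higher. Gtf2h4, a subunit of the transcription and repair complex TFIIH, was 1.81-fold higher, and Vps72, a subunit of the SRCAP chromatin remodeller, 1.98-fold. Ap2a2, a subunit of the clathrin adaptor AP-2, was 1.77-fold higher in its better-ranked probe set, and its other probe set was called at log2 0.87. Slc44a4, a solute carrier of the choline transporter-like family, was 1.73-fold higher, the MAP kinase-regulated protein Mcrip1 1.6-fold and the mitochondrial fission regulator-like gene Mtfr1l 1.66-fold. The adjusted p of these 7 genes lay between 0.0025 and 0.0085. Mouse 5 overlapped wild-type for Mcrip1, Ap2a2 and Vps72.

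Among genes that were lower, B3galt2, which adds galactose to glycan chains, ranked first by p. It gave 81.2, 80.5, 50.4, 49.3 and 103 against 141 to 187 (median 160). No values overlapped, and the signal was 2.32-fold lower (log2 -1.21 ± 0.19 SE, adjusted p = 0.0025). Mice 3 and 4 were lowest, and the log2 difference was -0.89 without them. Scn1a, the voltage-gated sodium channel of fast-spiking interneurons whose loss is a known cause of epilepsy, gave 253, 237, 176, 190 and 325 against 356 to 553 (median 441). It was 1.89-fold lower with no overlap (log2 -0.92 ± 0.16 SE, adjusted p = 0.0025). A second Scn1a probe set, which was brighter, was called at log2 -0.93 (adjusted p = 0.017), with mouse 5 inside the wild-type range. The log2 differences of the 2 probe sets in high-ratio arrays were -0.69 and -0.52.

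Smad1, which carries BMP signals to the nucleus, gave 167, 189, 148, 136 and 179 against 221 to 282 (median 246), a 1.52-fold difference with no overlap. Its other probe set was also called, at log2 -0.67. Pag1, a membrane adaptor that recruits the kinase Csk, was 2.35-fold lower, but mouse 5 at 150 lay within the wild-type range of 129 to 246. Slc31a1, the copper importer, gave 101, 120, 98.2, 89.2 and 125 against 170 to 269 (median 197), separate groups at log2 -0.93. For Slc31a1 the low-ratio arrays were only slightly below the others, and the high-ratio difference was -0.81. The other Slc31a1 probe set lay at log2 -0.01 (adjusted p = 0.98).

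Xpot, which exports tRNA from the nucleus, gave 222, 184, 154, 158 and 244 against 324 to 412 (median 366), with no overlap (log2 -0.96 ± 0.18 SE, adjusted p = 0.0048). Eif1a, a translation initiation factor, was 1.79-fold lower, and its other probe set was called at log2 -0.79. Cpeb2, which binds the 3' ends of messages to control their translation, was 2.09-fold lower, and the nucleolar gene Dnttip2 2.08-fold. Rabggtb, a subunit of the enzyme that adds lipid anchors to Rab proteins, was 1.63-fold lower, the vesicle protein Sypl 1.82-fold and the syntenin gene Sdcbp 1.91-fold. Mouse 5 lay inside the wild-type range for Eif1a, Cpeb2 and Dnttip2, and mice 1 and 5 for Sdcbp.

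**Figure D3:**
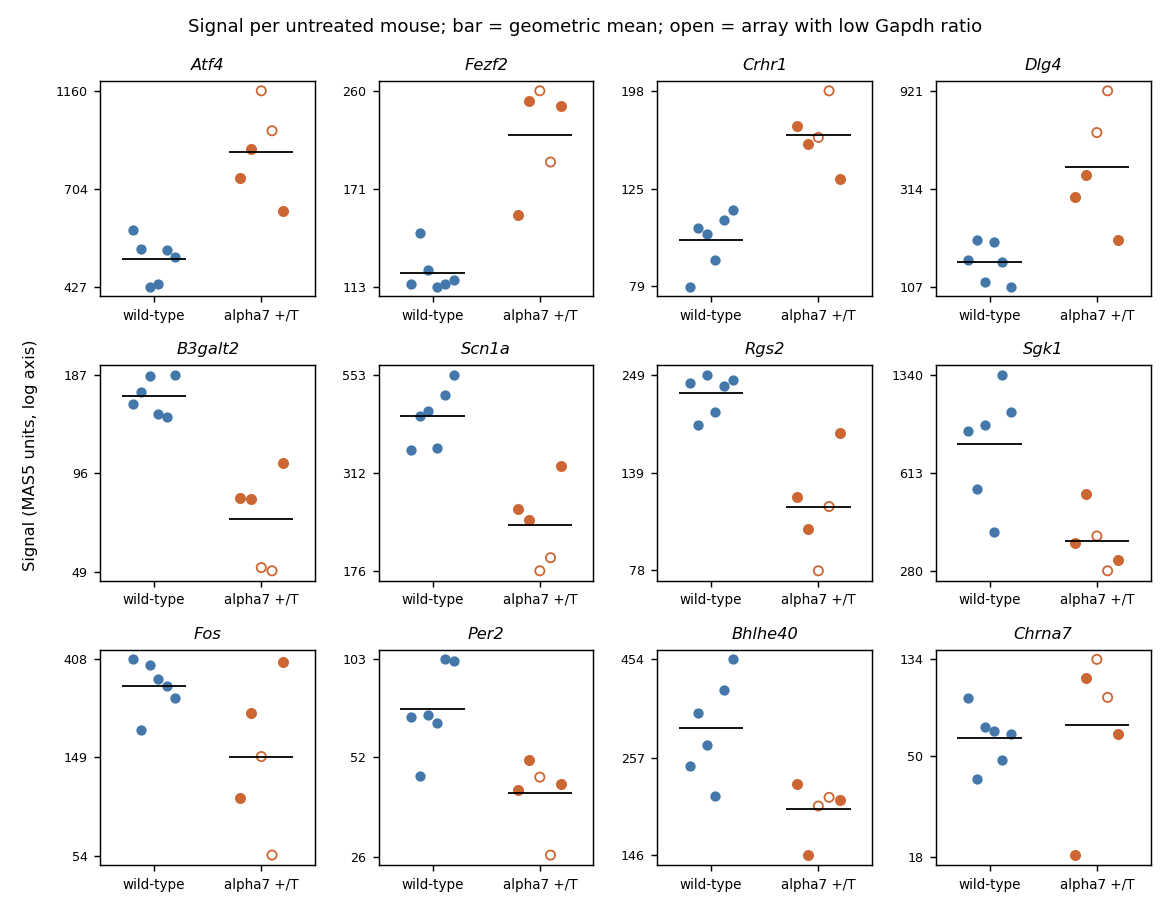
Signal of 12 genes in each untreated mouse (MAS5 units, log y axis), with wild-type in blue, alpha7 +/T in orange, open circles for the 2 low-ratio arrays and a bar at the geometric mean. Atf4, Fezf2, Crhr1, B3galt2, Scn1a and Rgs2 separate the groups, whereas Fos, Sgk1, Per2, Bhlhe40 and Chrna7 overlap, and for Dlg4 the alpha7 +/T mouse nearest to wild-type is mouse 5 at 178.

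Of 20 measured immediate early genes, 4 were lower and 0 higher, with a median log2 difference of -0.18 against 0.04 over all genes. Those 4 were Fos, Jund, Klf10 and Bhlhe40. Fos, the classic marker of recent neuronal firing, gave 97.6, 234, 150, 54.4 and 399 against 197 to 408 (median 322). The groups overlapped and mouse 5 was near the wild-type top (log2 -1.05 ± 0.35 SE, adjusted p = 0.04). In high-ratio arrays the Fos difference was -0.57 with an unadjusted p of 0.13 from limma, and Fos was called in 12 of the 29 settings, whereas B3galt2 was called in 28. Klf10, a growth factor-induced repressor, was separate between groups at 111 to 127 against 139 to 179, a 1.33-fold difference. Its other probe set was at log2 -0.39 and was not called (adjusted p = 0.1).

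A list of activity-regulated effectors, drawn up after the calls were seen, had 2 lower and 1 higher of 12. Rgs2, which shortens signalling by Gq-coupled receptors, gave 121, 100, 77.8, 114 and 176 against 185 to 249 (median 236). Its groups did not overlap, and it was 1.97-fold lower (log2 -0.98 ± 0.2 SE, adjusted p = 0.009), and -0.8 in high-ratio arrays. Rgs2 was called in 26 of the 29 settings. Sgk1, a kinase induced by both glucocorticoids and activity, gave 349, 516, 370, 280 and 305 against 381 to 1340 (median 880). It was 2.17-fold lower with overlap at the wild-type low end (log2 -1.12 ± 0.29 SE, adjusted p = 0.018). Plk3, a stress-activated kinase, was the gene called higher, at log2 0.33.

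Clock genes and glucocorticoid-responsive genes were 2 further lists drawn up after the calls were seen, so their counts are descriptions. Of 15 clock genes, 3 were lower and 0 higher, with a median of -0.35. Per2, a core clock repressor, gave 41.3, 50.9, 45.3, 26.3 and 43.2 against 45.6 to 103 (median 69.3), 1.81-fold lower. Nr1d2, a nuclear receptor that represses clock transcription, gave 191, 276, 219, 170 and 229 against 281 to 363, with no overlap, at log2 -0.57. Bhlhe40, a repressor shared with the immediate early list, was 1.59-fold lower, and its low-ratio arrays, at 194 and 204, were amid the others. The time of day of tissue collection was not given in the sources used here.

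Of 17 glucocorticoid-responsive genes, 5 were lower and 0 higher, with a median of -0.5. They were Sgk1, Zbtb16, Txnip, Ddit4 and Klf9. Zbtb16, a zinc-finger repressor induced by glucocorticoids, was 1.88-fold lower, and Txnip, which restrains thioredoxin and glucose uptake, 1.86-fold. Ddit4, an inhibitor of mTORC1 signalling, was at log2 -0.5, and the Krüppel-like factor Klf9 at -0.36. The log2 differences of these 5 in high-ratio arrays ran from -1.13 for Txnip to -0.35 for Klf9. A second Txnip probe set lay at log2 0.43 and was not called (adjusted p = 0.17), and a second one for Klf9 lay at -0.15 (adjusted p = 0.66).

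Promoters are shown for 3 of these 12 lowered genes as examples of windows with the cyclic AMP response core (Fos and Rgs2) and with the glucocorticoid element (Txnip). RefSeq (GRCm38.p6) gave 8 of the 12 promoters, as windows from 250 bases before to 50 after the gene start, and capitals mark motif matches. The Fos window is chr12:85473640-85473939 on the plus strand. That of Rgs2 is chr1:144004100-144004399 on the minus strand, and that of Txnip is chr3:96557707-96558006 on the plus strand.
Fos: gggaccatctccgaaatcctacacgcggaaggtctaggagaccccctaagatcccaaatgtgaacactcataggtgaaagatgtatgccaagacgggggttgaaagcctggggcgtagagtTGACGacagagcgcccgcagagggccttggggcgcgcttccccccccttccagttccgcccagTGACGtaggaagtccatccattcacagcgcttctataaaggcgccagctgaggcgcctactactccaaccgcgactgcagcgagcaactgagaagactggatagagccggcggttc
Rgs2: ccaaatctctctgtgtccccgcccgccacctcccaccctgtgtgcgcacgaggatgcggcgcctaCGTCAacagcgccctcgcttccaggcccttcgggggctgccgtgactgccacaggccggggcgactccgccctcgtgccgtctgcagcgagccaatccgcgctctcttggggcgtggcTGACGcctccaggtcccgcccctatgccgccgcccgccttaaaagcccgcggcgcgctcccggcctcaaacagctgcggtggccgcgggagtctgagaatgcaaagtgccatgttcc
Txnip: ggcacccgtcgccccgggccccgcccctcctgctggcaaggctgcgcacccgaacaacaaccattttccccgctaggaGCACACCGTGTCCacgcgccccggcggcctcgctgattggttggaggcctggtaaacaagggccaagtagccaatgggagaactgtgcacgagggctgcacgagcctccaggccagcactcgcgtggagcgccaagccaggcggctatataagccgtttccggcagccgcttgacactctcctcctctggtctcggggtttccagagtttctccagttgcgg
The cyclic AMP response core TGACG, searched on both strands, was in 3 of the 8 windows, those of Fos, Rgs2 and Klf9, and in 21.0% of 27025 RefSeq promoter windows. The E-box CACGTG was in 0 of the 8 and in 7.24% of all. The palindromic glucocorticoid element, GNACA followed after 3 bases by its reverse complement, was in 2 of the 8, those of Txnip and Jund, and in 0.463% of all. None of these motifs overlapped another in the printed windows. The 12 genes include members of the glucocorticoid-responsive list, which was drawn up after the calls, so these shares do not test enrichment. The matches are descriptions of sequence.

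Stress response and tRNA synthetase genes included Atf4 and were listed after the calls were seen. Of 15 measured, 4 were higher and 1 lower. Tars, threonyl-tRNA synthetase, gave 64.6, 158, 192, 189 and 91.8 against 46.2 to 61.5, a 2.42-fold difference without overlap. Ppp1r15a, which reverses eIF2 alpha phosphorylation, was at log2 0.8, and Sars, seryl-tRNA synthetase, at 0.47. Psat1, an enzyme of serine synthesis, was lower at log2 -0.41, also without overlap.

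Of 25 hnRNP and SR splicing factors, 6 were lower and 0 higher, with a median of -0.32. Srsf1, a splice-site activator, gave 80.8, 104, 71, 59.3 and 105 against 117 to 177 (median 138), and Hnrnpk, a poly(C)-binding protein, gave 267, 241, 232, 231 and 269 against 309 to 380. Both were separate between groups, at log2 -0.77 and -0.5, and the other Srsf1 probe set lay at 0.1 (adjusted p = 0.89). In a list drawn up after the calls, 7 of 23 Sm, Lsm and SF3 spliceosome proteins were lower and 1 higher, Lsm8 at log2 -0.65 and Lsm4 at 0.64. In that list 10 of the 23 lay above 0, called or not. Importins and exportins, likewise listed afterwards, had 6 of 17 lower and 0 higher. Tnpo3, which imports SR proteins, gave 174, 158, 113, 104 and 232 against a narrow wild-type range of 256 to 278, and Ipo5, an importin, was 1.71-fold lower.

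Protein degradation and respiration genes moved both ways. Of 33 proteasome subunits, 8 were lower and 4 higher, with a median of -0.2. Psma2, a core alpha subunit, was at log2 -0.78, while Psmd4, the ubiquitin receptor of the regulatory particle, was at 1.1. Of 60 oxidative phosphorylation subunits, 11 were lower and 3 higher, with a median of -0.25. Ndufb3 of complex I was 2.36-fold lower, and Ndufv1, the NADH-binding subunit of the same complex, 2.01-fold higher without overlap. With high-ratio arrays alone the list medians were -0.11 for the proteasome and -0.15 for respiration, against 0.02 for all genes. Ubiquitin-conjugating enzymes and ubiquitin proteases, listed after the calls, had 7 of 39 lower and 3 higher. Among heat shock proteins and chaperonins, 3 of 50 were higher and 3 lower, shares below the background in both directions.

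**Figure D4:**
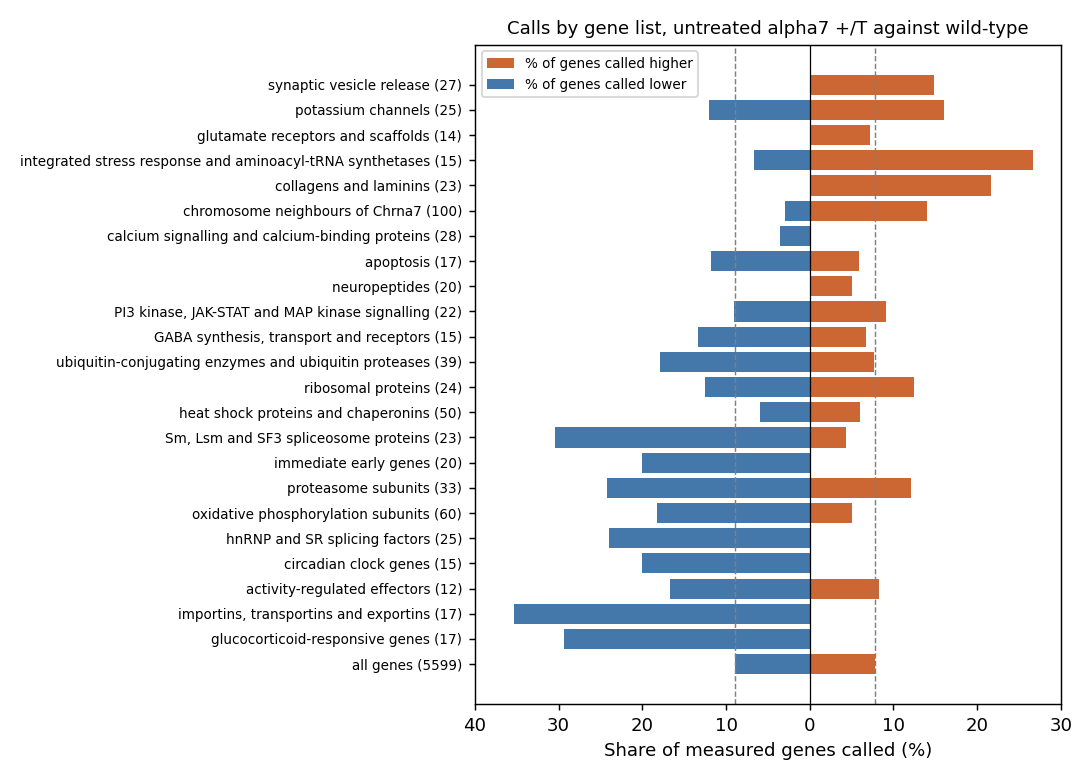
Bars give the share of each list's measured genes (number in brackets) called higher (orange, right) or lower (blue, left), ordered by median log2 difference, with dashed lines at the shares over all 5599 genes. Importins and exportins reach 35.3% lower, and the integrated stress response list 26.7% higher.

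Of 27 synaptic vesicle genes, 4 were higher and 0 lower: Vamp1, Syp, Syt3 and Syt5. Vamp1, a vesicle SNARE protein, gave 113, 490, 781, 327 and 48.4 against 5.42 to 47.5, and its wild-type signals sat near or under the array median. Its log2 difference of 3.51 therefore compares signals of which 1 side is dim. Syp, the vesicle protein synaptophysin, gave 166, 210, 416, 331 and 102 against 84.6 to 113 (log2 1.14, adjusted p = 0.046), and was called in 11 of the 29 settings. The low-ratio arrays, mice 3 and 4, had the highest signals of Syp, Syt3 and Syt5. The other Syt3 probe set lay at log2 -0.57 and was not called (adjusted p = 0.26). The list median was 0.3 in all arrays and -0.11 in the high-ratio arrays.

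At the postsynaptic side, 1 of 14 glutamate receptor and scaffold genes was higher (7.14%, near the 7.79% over all genes) and 0 lower. That gene was Dlg4, the scaffold PSD-95, with 286, 365, 582, 921 and 178 against 107 to 178, a 2.85-fold difference (log2 1.51 ± 0.36 SE, adjusted p = 0.015) and log2 0.92 in high-ratio arrays. Of 15 GABA genes, the receptor subunit gene Gabrd was higher at log2 0.9, while Gabra6 and the chloride importer Slc12a2 were lower at -0.58 and -0.79. The high-ratio difference for Gabrd was 0.44 with an unadjusted limma p of 0.11.

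Ion channels split by family member. Of 25 potassium channel genes, 4 were higher and 3 lower. Kcnj4, an inward rectifier, gave 177, 243, 244, 253 and 94.7 against 67.8 to 129, at log2 1.07. The subunit genes Kcnab3 and Kcnj11, the latter of ATP-sensitive channels, were at log2 2.0 and 1.67, and Kcnh2 at 0.38. For Kcnab3 the wild-type signals of 5.95 to 32.1 were all under the array median, and Kcnj11 was also dim, with a mean log2 signal of 5.4 over 28 arrays, so the size of both differences is uncertain. The voltage-gated channels Kcna1 and Kcnd2 and the calcium-activated Kcnma1 were lower, at log2 -0.75, -0.78 and -0.63. The other Kcnd2 probe set lay at log2 0.34 and was not called (adjusted p = 0.57). Cacna1c, the L-type calcium channel, was higher at 0.46, with 1 of 8 calcium channel genes called. Among 28 calcium signalling and calcium-binding genes, 0 were higher and 1 lower, below the background, at a median of 0.11.

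Chrna7 itself was measured by 1 probe set. It gave 18.3, 111, 134, 91 and 62.5 against 39.6 to 90.9 (median 63.7). The alpha7 +/T values spanned the whole wild-type range (log2 0.19 ± 0.38 SE, adjusted p = 0.73), and the sign turned to -0.26 in high-ratio arrays and -0.13 with the class covariate. The point mutation does not delete the transcript, so this signal does not check the genotype labels. Of 16 nicotinic subunits listed, only Chrna7, Chrne and Chrng passed the signal filter. Chrne gave log2 -0.04 (adjusted p = 0.93) and Chrng -0.68 (adjusted p = 0.28), and the groups overlapped for both.

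Other cholinergic genes were few. Ache, which breaks down acetylcholine, gave 460, 515, 547, 627 and 187 against 189 to 314 (median 239), 1.82-fold higher with mouse 5 under every wild-type mouse (adjusted p = 0.044). Chrm1, the M1 muscarinic receptor, gave 58.6, 93.3, 186, 156 and 5.7 against 7.01 to 24.5 and was not called (adjusted p = 0.068). Of 10 measured nicotinic receptor partners, 1 was lower (10%, near the 8.88% over all genes) and 0 higher. It was Cdh2, a cadherin of synaptic adhesion, at log2 -0.5 (adjusted p = 0.04).

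Genes near Chrna7 on chromosome 7 were read because a modified locus can carry neighbouring sequence from another strain. Of the 20 measured genes nearest in gene order, 10 on each side, 0 were higher and 1 lower, Tjp1, a tight junction scaffold (log2 -0.67, adjusted p = 0.022). From 11 to 50 genes out, 14 of 80 were higher and 2 lower, with a median of 0.19. Mfge8, a secreted protein that marks cells for uptake, was highest by rank there, at 2.05-fold. Kcnj11, Ppp1r15a and Syt3, named above in other lists, are also among these 14. Strain differences at the locus were not tested.

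Signalling lists tied to survival held calls of both signs, at shares near the background of 7.79% higher and 8.88% lower. The PI3 kinase, JAK-STAT and MAP kinase list had 9.09% in each direction. The apoptosis list had 5.88% higher and 11.8% lower. Of 22 PI3 kinase, JAK-STAT and MAP kinase genes, Jak3 and Akt2 were higher, at log2 0.79 and 0.77, and Jak2 and Pik3ca lower, at -0.56 and -0.82. The other Pik3ca probe set lay at 0.11 (adjusted p = 0.81). Jak3 and Jak2, both cytokine receptor kinases, were separate between groups. Of 17 apoptosis genes, Bak1, a pore former of the mitochondrial membrane, was higher at 0.61. Apaf1, the apoptosome scaffold, was lower at -0.67 with no overlap, as was Bcl2l2, a survival factor, at -0.52 with overlap. Collagens and laminins, listed after the calls, had 5 of 23 higher and 0 lower, the laminin genes Lamb2 and Lama5 among them. Lamb2 gave 55.3, 73.9, 86.7, 83.6 and 21.7 against 5.79 to 35.8, every wild-type signal being under its array's median, so its log2 difference of 1.71 has a dim side.

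Markers of brain cell types and regions gave the tissue as labelled. Snap25, a neuronal protein, read 4380 to 7460 over the 11 arrays, Gfap of astrocytes 219 to 360 and Mbp of myelin 1620 to 4400. Prl, a pituitary hormone, read 10.2 to 71. Summed signals overlapped between groups for each of the 16 marker lists, though a sum mostly follows its brightest members. Outside the cerebellar list, markers called higher were Syp, Mag, C1qc, Sox18 and Slc6a13, at log2 1.14, 1.53, 0.9, 0.56 and 0.46. Gja1, Pdgfra and Dcn were called lower, at -0.58, -0.65 and -0.64. The other Pdgfra probe set lay at 0.04 (adjusted p = 0.94). For 8 measured cerebellar markers the sums were 4120 to 6530 in alpha7 +/T and 6000 to 7520 in wild-type mice, and 3 of the 8 were called lower, Car8, Zic1 and Gabra6. In the same list 3 of the 8 lay above 0, Cbln1 among them at log2 0.34 (not called, adjusted p = 0.11). The list median was -0.11, and 0.04 in high-ratio arrays, and the other Gabra6 probe set lay at 0.08 (adjusted p = 0.89). The thalamus list summed to 1330 to 2230 and 1130 to 1380, with 0 called. The blood list summed to 3800 to 6170 and 2700 to 6890. The part of tissue composition in the gene differences was not tested. Among sex-linked transcripts, Xist was dim and overlapped between labelled sexes, at 1.31 to 22.9 in labelled males. Xist in labelled females was 29.3 and 20.9 in alpha7 +/T mice 1 and 4, and 32.2, 1.44 and 65.9 in wild-type mice 2, 5 and 6. The Y-linked Eif2s3y read 27.3 to 115 in the 6 labelled males. In labelled females it read 10.8 and 10.2 in alpha7 +/T mice 1 and 4. It read 1.19, 89.1 and 9.35 in wild-type mice 2, 5 and 6, also labelled female. Wild-type mouse 5 thus lay in the range of labelled males for Eif2s3y. Its Xist signal of 1.44 was also in their range, below that of every other labelled female. The sex label of that mouse was not resolved here.

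Other probe sets of a gene often went their own way. Of 178 further probe sets belonging to 157 genes called by their brightest probe set, 100 (56.2%) had the same sign, 19 were called with the same sign and 4 with the opposite. Ero1a, Foxp1, Mtcp1 and Peg3 each had calls in both directions, such as Foxp1 at log2 -0.68 and 1.17.

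Different mice carried the same genotypes in the seized groups, 5 alpha7 +/T and 3 wild-type. There, 0 of 7350 were called (0.0%), and 882 had an unadjusted limma p under 0.05 (12%). Of the 1177 probe sets called in untreated mice, 1007 had the same sign in seized mice, 160 (13.6%) of them with an unadjusted p under 0.05. The seized groups also differed in age and title prefix. They differed in array class too, with 3 low-ratio arrays of 5 in alpha7 +/T and 0 of 3 in wild-type. With high-ratio arrays alone, 2 against 3, 640 of the 1177 had the same sign, and the seized differences were a median 0.04 times the untreated ones. With all seized arrays, Fezf2 was at log2 -0.13, B3galt2 at 0.32, Atf4 at 0.29 and Rgs2 at -0.48. The difference between the seized and untreated contrasts gave 0 calls (limma), with 545 at an unadjusted p under 0.05, and 12 calls with the class covariate.

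**Figure D5:**
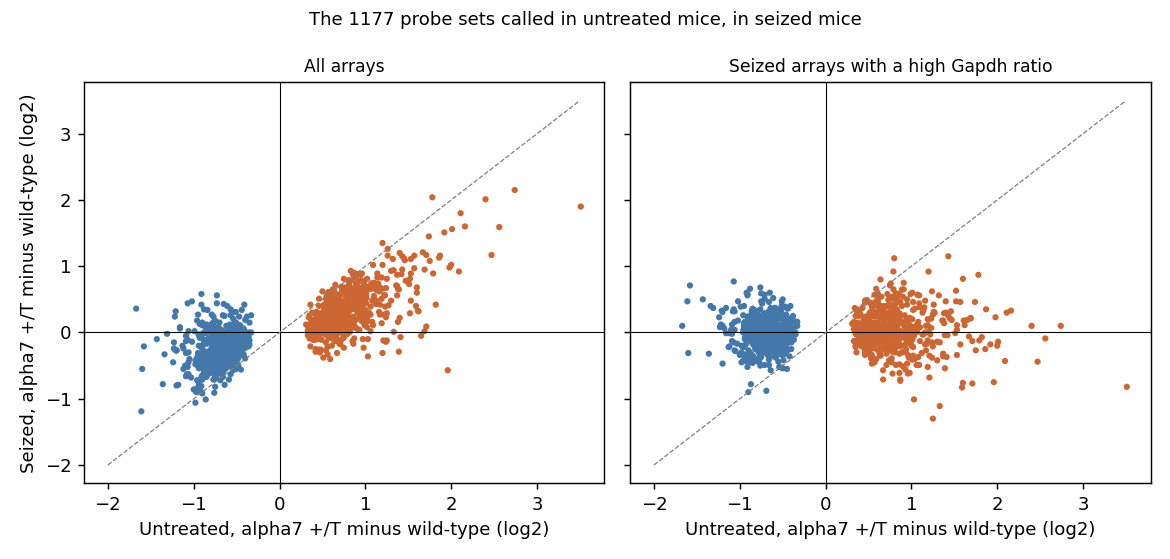
Each point is 1 of the 1177 probe sets called in untreated mice, with its untreated log2 difference on the x axis and that in seized mice on the y axis, for all arrays (left) and with seized arrays of low ratio left out (right). The dashed line marks equality, 1007 points keep their sign at left and 640 at right.

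Untreated beta4 null mice shared the wild-type controls, so values stand side by side only. That contrast had 1 call (0.0136%), Spg21, and 2 of its 5 null arrays were low-ratio. Of the 1177 probe sets called in alpha7 +/T mice, 1027 had the same sign in beta4 null mice. Among those, 236 had an unadjusted limma p under 0.05. With high-ratio arrays alone, 805 had the same sign. Both contrasts subtract the same wild-type arrays, so part of this sign agreement is built in and no conclusion is drawn from it. In beta4 null mice the log2 differences were 0.43 for Atf4, 0.39 for Fezf2, -0.1 for B3galt2, -0.08 for Rgs2 and -0.35 for Sgk1. In alpha7 +/T mice these 5 genes were at 0.79, 0.85, -1.21, -0.98 and -1.12.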

How the data were processed

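Whole brain RNA of 28 mice, 1 array each, was labelled by oligo-dT priming and in vitro transcription, per the labels' protocols. The authors deposited linear signal intensity, 1 value per probe set, computed by MAS5 according to the submitters' processing notes (version not stated there). Trimming 2% of values at each end gave every array a mean of 150, so scaling preceded deposit. Signals were taken to log2 with no pseudocount. Of 12422 probe sets that are not controls, 7350 with signal above their array's median in at least 3 arrays were kept. limma 3.58.1 in R 4.3.3 fitted 6 group means over 28 arrays (lmFit, eBayes with trend), checked on simulated data. The threshold was an adjusted p of 0.05 (Benjamini-Hochberg).

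GEO's platform annotation gave 1 gene for 10833 probe sets, several for 396 and none listed for 1193. The brightest probe set stood for a gene in lists. Named genes were the 12 called with the smallest adjusted p in each direction, others called under both checks, up to 4 per list by p, nicotinic subunits and neighbours of Chrna7. Other called list members are named to complete a count, chosen after their values were seen. The members and lists were chosen with earlier results of these data known, and 8 lists after the calls were seen. The number of arrays limits the precision.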

Additional observations from a re-analysis of the deposited data

Results flagged for a closer look

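In 236 tests of a group's highest and lowest array among the named genes, 7 had a sample far from the others. Chance alone gives about 1 in 20, so these were no more than chance would give. In wild-type mouse 2, the log2 signal of Fezf2 was 7.15, above 6.83 to 6.92 in the rest, and that of Lsm4 was 8.46, above 7.63 to 7.76. Bak1 was 7.07 in wild-type mouse 1, above 6.25 to 6.53, and Syt3 was 6.48 in wild-type mouse 3, below 6.98 to 7.19. In alpha7 +/T mouse 5, Ache was 7.55, below 8.85 to 9.29, and Syt5 was 6.96, below 9.02 to 9.79. Txnip was 4.4 in alpha7 +/T mouse 2, below 6.2 to 6.58.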

How the results depend on the processing

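The 1177 calls were refitted under 18 other settings and with each of the 11 mice left out. The number of probe sets called higher (568) and lower (609) became 373 higher under quantile normalization, 267 and 271 with the 2 groups alone, and 273 and 288 with age as a covariate. It became 56 and 46 with the title prefix as a covariate, 65 and 39 with LT wild-type mice only, and 343 and 335 with 6-week LT mice. It became 316 and 353 with the array class as a covariate, 0 and 3 with high-ratio arrays, and 0 and 0 (limma, 1175 at an unadjusted p under 0.05) when those were joined with LT wild-type mice. Of 2 further settings chosen after seeing the data, high-ratio 6-week LT mice gave 124 and 78, and 6-week LT mice with the class covariate 356 and 317. Leaving out 1 mouse gave 30 to 1033 higher and 30 to 1008 lower. The extremes came without alpha7 +/T mouse 3 and mouse 5, and the cause was not tested. Of the 1177, 1175 kept their sign in all of these 29 fits that tested them, and 560 (47.6%) also an unadjusted p under 0.05 in every one. These fits reuse the arrays that made the calls, so a kept sign is not an independent check. The seized contrast minus the untreated contrast moved from 0 to 12 calls with the class covariate. No paired analysis was possible because the labels give mouse identifiers and no replicate numbers shared between groups.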
